A study of Mus musculus with 3 samples.

Results

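Metalloproteinases and their tissue inhibitors were examined as a gene family in NMuMG, a cell line of mouse mammary gland epithelium, with and without forced MAFK. MAFK is a small MAF protein, a leucine zipper factor that recognises DNA alone or with partners of the CNC family. The members were taken by name: every gene with a single-symbol probe set called Mmp, Adam or Adamts plus a number, together with Timp1, Timp2, Timp3, Timp4 and Reck. This gave 79 genes of the 19935 that the arrays could name, made up of 22 Mmp, 34 Adam and 18 Adamts genes and 5 inhibitor genes. Mmp15 and Adamts2, the other 2 of 81 mouse genes that such a name covers in RefSeq, had no probe set of their own and were not analysed here.

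The MAFK group was a pair of stable lines, clone 4 and clone 10, each carrying pCAGIP with FLAG-tagged MafK (n = 2 arrays, 1 per clone). The mock group was cells with the pCAGIP vector (n = 1 array). All were kept in puromycin, and none of the labels names the mock cells as a clone, so MAFK and single-cell cloning cannot be told apart here. The number of arrays limits the precision: mock was measured once and separate cultures are not stated. The p-values therefore hold no spread of mock. They rest on the spread between the clone arrays, combined with a spread borrowed from other genes. Where both clones had the same value, only the borrowed spread counts.

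Matrix metalloproteinases are zinc endopeptidases that cut collagens, laminins, proteoglycans and cell-surface proteins, and are made as inactive precursors. ADAM proteins are mostly membrane-anchored and release the outer parts of growth factors, cytokine receptors and adhesion molecules, while ADAMTS proteins are secreted and act on proteoglycans and procollagens. The TIMP proteins block the active site and RECK restrains several of the enzymes at the cell surface. In the mammary gland these enzymes are known for remodelling of the basement membrane and stroma during branching and involution.

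Values are log2 RMA, a log2 intensity per probe set. A gene was counted as apart where both clones differed from mock 2-fold or more and in 1 direction. "Rose" and "fell" are kept for genes that also passed limma's moderated test with a Benjamini-Hochberg adjusted p under 0.05 over all genes. The probe set for Mafk read 8.74 in clone 4 and 8.59 in clone 10, against 8.49 in mock (limma adjusted p = 0.612), and whether its probes cover the transgene was not analysed here.

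The labelled epithelium was checked with 13 measured epithelial markers, of which 2 fell, none rose and 9 reached the median of all probe-set values on some array. The list averaged 8.20 in both clones, against 8.79 in mock. The markers that fell were Cdh1, the E-cadherin gene, and Tjp1, a tight junction gene, which read 9.55 in clone 4 and 9.51 in clone 10, against 11.01 in mock (limma adjusted p = 0.0394). The keratin gene Krt8 read 13.18 in clone 4 and 13.31 in clone 10, against 13.67 in mock, and Krt18 read 10.92 and 11.08 in clones 4 and 10, against 11.95 in mock (limma adjusted p = 0.0972). Krt19 and Krt7 lay on the other side of mock. Krt19 read 12.25 and 12.08 in clones 4 and 10, against 11.99 in mock. Krt7 read 7.11 and 6.95, against 6.74. Of the 13 markers, 4 were above mock in both clones and 6 below it in both. Epcam read 5.58 on every array. Of 9 fibroblast markers 1 rose, none fell and 1 more was 2-fold lower without passing, and the list averaged 6.91 in clone 4 and 6.97 in clone 10, against 6.64 in mock. Pdgfrb, a receptor gene of mesenchymal cells, rose 10.1-fold, reading 9.95 in clone 4 and 10.30 in clone 10, against 6.78 in mock (limma adjusted p = 0.0461). Dcn read 5.76 and 6.06 in clones 4 and 10, against 7.88 in mock (limma adjusted p = 0.0711), and Lum 5.08 on every array. The part of these markers in the results on the family was not tested. None of 6 endothelial markers was 2-fold apart, and of 10 macrophage and neutrophil markers 1 was, S100a8, which fell (limma adjusted p = 0.0315). The leukocyte gene Ptprc read 5.81 on every array. The markers named here were picked after their values were seen.

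Both clones were at least 2-fold from mock for 5 of the 79 members, 4 lower and 1 higher. That is 6.33% of members, against 3% of all genes. The 4 lower members, Mmp13, Mmp3, Mmp14 and Adam8, made up 5.06%, against 1.81% of all genes, and the 1 higher member, Adamts1, 1.27% against 1.19%. Mmp13 and Mmp3 fell, and no member rose. These are 2.53% of the members, beside 0.762% of all genes that fell and 1.16% that rose or fell. The median difference of the members was 0 in each clone, as it was over all genes. An unadjusted limma p under 0.05 was reached by 14 members, 8 lower and 6 higher, a share of 17.7% against 17.5% of all genes. With counts this small the shares describe the family and do not set it apart from other genes.

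Much of the family showed no signal that moved. On all 3 arrays 29 members had exactly the same value, 36.7% against 34.3% of all genes, which median polish over few arrays can produce. The highest value of 49 members stayed below 6.91, the median of all probe-set values. That median was reached on some array by 38.0% of members, against 55.4% of all genes. No detection call was used, so low values may hold background as well as transcript.

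**Figure D1:**
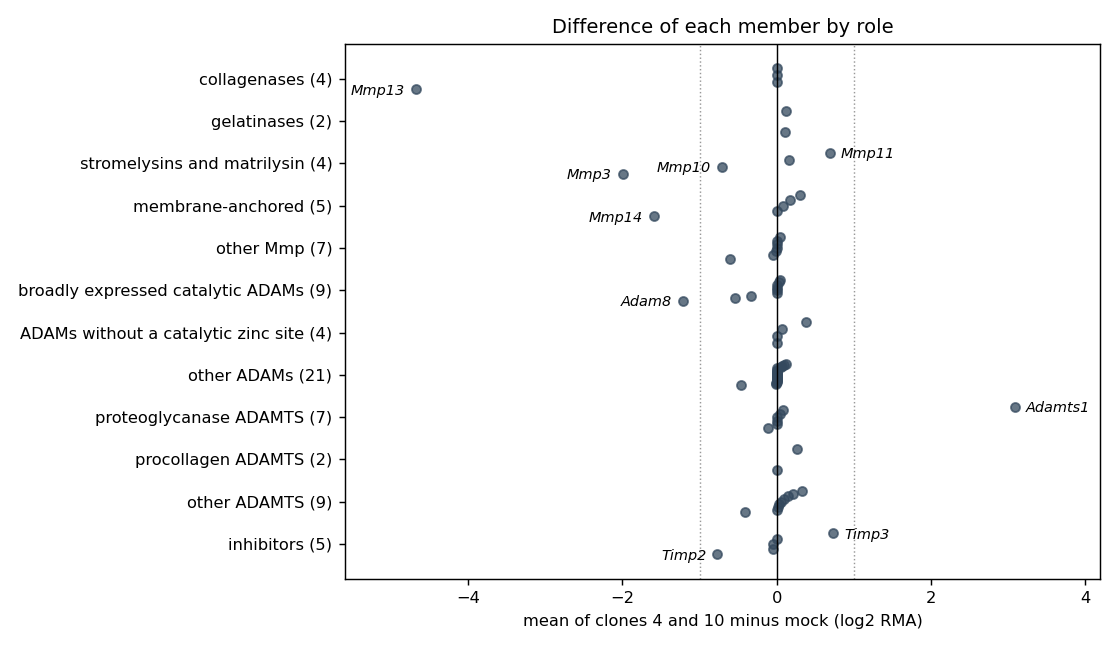
Each point is 1 of the 79 members, placed by the mean of clones 4 and 10 minus mock (x axis, log2 RMA units) within its role group (y axis, number of members in brackets). Dotted lines mark 2-fold. Points of most groups lie near 0, with Mmp13, Mmp3, Mmp14 and Adam8 to the left of the lower line and Adamts1 to the right of the upper line.

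Among the collagenases, which cut fibrillar collagen, 1 of 4 fell. Mmp13, which encodes collagenase-3, the chief interstitial collagenase of rodents, read 5.77 in clone 4 and 5.49 in clone 10, against 10.31 in mock. Both clones lay far below mock and below the median of all probe-set values, where values may hold background. The difference was -4.68 ± 0.16 (SE) on the log2 scale, 25.7-fold lower with MAFK, with a limma adjusted p of 0.0311. Taken singly, the fold was 23.3 in clone 4 and 28.4 in clone 10. With clone values this low, the size of the fold and the gap between the clones are uncertain. In RNA from whole cultures, fewer expressing cells and less RNA per cell cannot be told apart. Mmp8, the neutrophil collagenase gene, differed from mock by 0.01 in each clone, and the mouse collagenase genes Mmp1a and Mmp1b by 0, all at low values.

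The stromelysins have broad substrates and activate other precursors, and 1 of the 4 genes in the group with matrilysin fell. Mmp3 (stromelysin-1) read 5.92 in clone 4 and 5.93 in clone 10, against 7.92 in mock. The clones nearly coincided, and both read lower than the 1 mock array. Both lay below the median of all probe-set values, where values may hold background, so their closeness is weak evidence of precision. The difference was -2.00 ± 0.07 (SE), 3.99-fold lower, with a limma adjusted p of 0.0311. With clones only 0.01 apart, this standard error comes almost wholly from the spread borrowed from other genes. A second quantile normalization of the deposited values ended both calls, giving adjusted p-values of 0.0671 for Mmp13 and 0.0657 for Mmp3, with sizes of -4.69 and -2.00. No gene of the whole table passed there.

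The closest relative of Mmp3, Mmp10 (stromelysin-2), was lower in both clones without reaching 2-fold. It read 6.22 in both clones and 6.93 in mock, a difference of -0.71 ± 0.07 (SE; limma adjusted p = 0.0814). Mmp11, the gene of stromelysin-3, stood on the other side, at 8.81 in clone 4 and 9.18 in clone 10 against 8.31 in mock (limma adjusted p = 0.268). Like Mmp28 and Adamts6 below, it was picked out after its values were seen. Mmp7, which encodes matrilysin, an epithelial enzyme, read 6.15 and 6.14 in clones 4 and 10 against 5.99 in mock (limma adjusted p = 0.452).

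Mmp13, Mmp3 and Mmp10 belong to a run of 10 Mmp genes on chromosome 9, with no other protein-coding gene between them in RefSeq (GRCm38.p6). The genes stand in the order Mmp13, Mmp12, Mmp1b, Mmp3, Mmp1a, Mmp10, Mmp8, Mmp27, Mmp20 and Mmp7. The lower genes are not adjacent. Mmp12 and Mmp1b, between Mmp13 and Mmp3, differed by -0.01 and 0 in each clone, and Mmp1a, between Mmp3 and Mmp10, by 0. Across the 7 members of the run other than the lower genes, the largest difference in either clone was 0.16 in size. The flanking genes also stayed close to mock: Dcun1d5 read 8.92 and 8.97 in clones 4 and 10, against 8.99 in mock, and Tmem123 read 10.85 in both clones, against 10.93 in mock. Over all 1165 named genes of chromosome 9 the mean difference was -0.05 in clone 4 and -0.04 in clone 10.

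**Figure D2:**
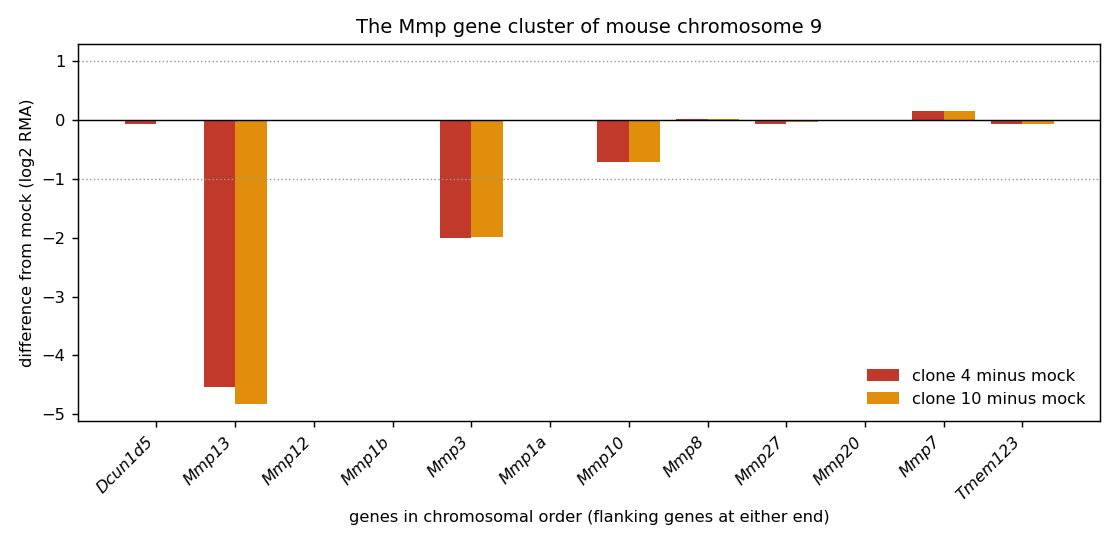
Bars give the difference from mock (y axis, log2 RMA units) in clone 4 and clone 10 for the genes of the chromosome 9 run in their chromosomal order (x axis), with Dcun1d5 and Tmem123 at either end. Mmp13, Mmp3 and Mmp10 are lower in both clones, at -4.54 and -4.83, -2.00 and -1.99, and -0.71 and -0.71, and the genes between them lie near 0.

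The promoters of the lower genes of the run are shown because Mmp promoters are textbook targets of AP-1, a family of leucine zipper factors related to MAF proteins. The 250 bases before each annotated start are given from RefSeq (GRCm38.p6), 5′ to 3′ on the gene's strand. That of Adamts1, the member with the largest increase, is added. Those of Mmp14 and Adam8, also 2-fold lower, were searched but are not printed. Capitals mark matches, on either strand, to the AP-1 site TGANTCA or the MAF half-site core TGCTGA, which can share the letters TGA but did not overlap in these promoters.
Mmp13 (chr9:7272264-7272513, plus strand): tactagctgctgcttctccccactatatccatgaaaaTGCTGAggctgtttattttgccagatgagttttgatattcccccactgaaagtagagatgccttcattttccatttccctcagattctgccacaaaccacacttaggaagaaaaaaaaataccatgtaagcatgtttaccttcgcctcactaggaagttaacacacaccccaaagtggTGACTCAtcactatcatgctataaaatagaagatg
Mmp3 (chr9:7445572-7445821, plus strand): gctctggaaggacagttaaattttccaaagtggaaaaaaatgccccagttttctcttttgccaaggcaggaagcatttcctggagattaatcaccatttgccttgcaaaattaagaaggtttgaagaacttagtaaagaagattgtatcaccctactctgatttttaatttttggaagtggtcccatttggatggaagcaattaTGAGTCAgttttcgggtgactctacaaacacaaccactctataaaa
Mmp10 (chr9:7502092-7502341, plus strand): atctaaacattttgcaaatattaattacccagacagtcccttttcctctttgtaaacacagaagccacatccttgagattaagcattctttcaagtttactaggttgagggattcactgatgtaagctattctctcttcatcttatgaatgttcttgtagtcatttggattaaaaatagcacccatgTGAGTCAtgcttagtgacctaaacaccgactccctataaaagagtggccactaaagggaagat
Adamts1 (chr16:85803114-85803363, minus strand): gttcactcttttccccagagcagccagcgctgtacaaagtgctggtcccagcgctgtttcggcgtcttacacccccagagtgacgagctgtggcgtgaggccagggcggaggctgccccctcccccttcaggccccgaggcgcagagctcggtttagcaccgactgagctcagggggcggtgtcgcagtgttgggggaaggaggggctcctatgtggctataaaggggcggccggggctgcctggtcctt

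The promoters of Mmp13, Mmp3 and Mmp10 each held 1 AP-1 match, whose first base lay 35, 46 and 63 bases before the start. Mmp13 also held the MAF half-site core, 213 bases before the start, as did Mmp14, 249 bases before it. The promoters of Adamts1 and Adam8 held neither motif in this window, and that of Mmp14 held no AP-1 match. Of the 4 members 2-fold lower, Mmp13 and Mmp3 thus held an AP-1 match and Mmp14 and Adam8 did not. In 300 bases from 250 before to 50 after the start, the AP-1 letters were found in 7.81% of 32851 mouse promoters and the half-site core in 19.5%. Promoter sequence was matched for 49 of the 79 members, with 54 promoters, of which 13 (24.1%) held the AP-1 letters and 8 (14.8%) the half-site core. Most of the members' AP-1 matches came from the chromosome 9 run, where 8 of 10 genes had a promoter with these letters. Mmp12, Mmp1a, Mmp1b, Mmp20 and Mmp7 were 5 of these 8, and the lowest difference among them was -0.01, in Mmp12. A match is a string of letters and says nothing of binding.

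The genes of the AP-1 factors themselves were also followed, in a list with ETS factors. The median difference of this list was 0.07 in each clone, against 0 for the members. Its part in the Mmp values was not tested. Of 15 measured AP-1 and ETS factor genes none was 2-fold apart from mock in both clones and none passed limma. Atf3 had the largest difference, at 9.23 in clone 4 and 9.02 in clone 10 against 8.37 in mock (limma adjusted p = 0.147). Junb read 8.43 and 8.61 in clones 4 and 10, against 8.99 in mock (limma adjusted p = 0.216), and Jund 9.58 in both clones, against 9.12 in mock (limma adjusted p = 0.134). Jun differed by 0.07 on average and Fosb had the same value on every array. The ETS factor gene Ets2 read 10.74 and 10.56 in clones 4 and 10, against 11.37 in mock (limma adjusted p = 0.143). Over the list 9 genes were above mock in both clones and 2 below it in both. The factors named here were picked after their values were seen.

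The gelatinases, which cut denatured collagen and collagen of basement membranes, showed no sizeable difference. Mmp2 read 6.97 in clone 4 and 7.02 in clone 10, against 6.88 in mock (limma adjusted p = 0.673). Mmp9 read 6.18 and 6.19 in clones 4 and 10, against 6.07 in mock (limma adjusted p = 0.626).

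Of the 5 membrane-anchored Mmp genes 1 was 2-fold apart. Mmp14 encodes MT1-MMP, a collagenase of the cell surface that activates the MMP2 precursor with TIMP2 as a bridge. It read 8.63 in clone 4 and 9.20 in clone 10, against 10.51 in mock. Both clones lay below mock, but they differed from each other more than those of Mmp13 or Mmp3. The difference was -1.59 ± 0.29 (SE), 3.01-fold lower, and did not pass (limma adjusted p = 0.164). Mmp14 lies on chromosome 14, whose 698 named genes had mean differences of -0.16 in clone 4 and -0.08 in clone 10, the lowest mean of any chromosome in both clones. Its part in the Mmp14 value was not tested. The other 4 of the group (Mmp16, Mmp17, Mmp24 and Mmp25) had mean differences between 0 and 0.31.

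Among the 7 remaining Mmp genes none was 2-fold apart and 3 had the same value on every array. Mmp28, which encodes epilysin, read 7.54 in clone 4 and 7.98 in clone 10, against 8.36 in mock (limma adjusted p = 0.381). Both clones were lower, and it was the 1 gene of the 7 whose value reached the median of all probe-set values.

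**Figure D3:**
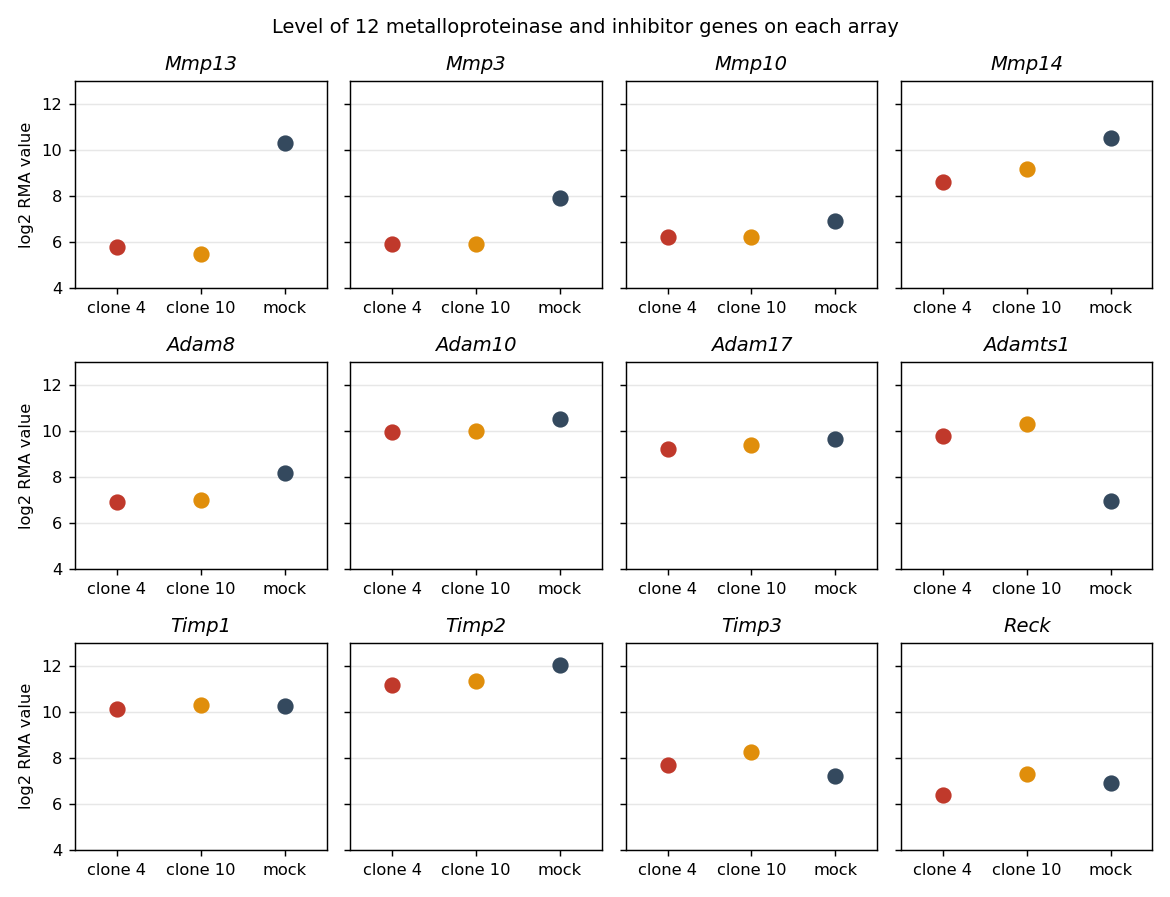
Points give the log2 RMA value (y axis) of 12 members on the arrays of clone 4, clone 10 and mock (x axis). Mmp13, Mmp3, Mmp10, Mmp14 and Adam8 are lower in both clones than in mock, Adamts1 is higher in both, and the clones lie on opposite sides of mock for Timp1 and Reck.

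Of the 9 catalytic ADAM genes with broad expression 1 was 2-fold apart. Adam8, a sheddase gene best known from leukocytes and invasive tumour cells, read 6.91 in clone 4 and 7.00 in clone 10, against 8.17 in mock. The clones were close to each other and both below mock, by -1.21 ± 0.08 (SE), a 2.32-fold reduction that narrowly missed the threshold (limma adjusted p = 0.0566). It passed with an intensity trend in the prior (limma adjusted p = 0.0431) and with a prior from all genes (0.0299). The prior from all genes takes in those equal in the clones, and its SD was 0.0105, against 0.0694. Adam8 did not pass in the other alternatives, with a limma adjusted p of up to 0.0942, after a second quantile normalization. Adam10, the sheddase of E-cadherin and Notch receptors, read 9.97 in clone 4 and 9.98 in clone 10, against 10.52 in mock (limma adjusted p = 0.109). Adam17, which frees TNF and ligands of the EGF receptor, read 9.24 and 9.38 in clones 4 and 10, against 9.64 in mock (limma adjusted p = 0.271). Both were lower in both clones by less than 2-fold. Adam9 read 10.96 on every array and Adam15 10.25 in both clones and 10.24 in mock.

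Adam2, Adam11, Adam22 and Adam23, grouped by hand as lacking a catalytic zinc site, had mean differences between 0 and 0.39. Proteins were not searched for the site, so other Adam members may lack it too. The 21 other Adam genes, many of them known from testis, had none 2-fold apart. Of these 14 had the same value on every array and 19 never reached the median of all probe-set values.

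Adamts1 had the largest increase of the family. It encodes a secreted protease that cuts the proteoglycans versican and aggrecan, and read 9.79 in clone 4 and 10.29 in clone 10, against 6.94 in mock. Both clones stood well above mock, but 0.50 apart from each other. The difference was 3.10 ± 0.26 (SE), 8.55-fold higher, with a limma adjusted p of 0.0706, and it passed where the prior followed intensity (adjusted p = 0.0496). Adamts5, a relative with similar substrates, read 5.68 in both clones and 5.63 in mock (limma adjusted p = 1). None of the other 6 proteoglycan-cutting members was 2-fold apart, and their mean differences lay between -0.12 and 0.09. The procollagen-cutting members Adamts3 and Adamts14 differed by 0 and 0.27 on average.

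None of the 9 remaining Adamts genes was 2-fold apart, with mean differences between -0.41 for Adamts6 and 0.32 for Adamts7. Adamts6 read 7.28 in clone 4 and 7.86 in clone 10, against 7.98 in mock, so that clone 4 stood apart. Adamts3, Adamts9 and Adamts17 had 16, 6 and 5 probe sets, and no probe set of these genes was 2-fold apart in either clone. Their differences ran from 0 to 0.24 for Adamts3 and from 0 to 0.21 for Adamts17. For Adamts9 they ran from -0.16 to 0.06 in clone 4 and from -0.49 to 0.00 in clone 10.

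The inhibitor genes differed from mock in both directions, and none of the 5 was 2-fold apart in both clones. Timp2, a broad inhibitor that also takes part in MMP2 activation, read 11.15 in clone 4 and 11.34 in clone 10, against 12.02 in mock. Both clones were lower, by -0.77 ± 0.12 (SE), with a limma adjusted p of 0.136. Timp3, which binds to the matrix and also restrains ADAM17 and several ADAMTS enzymes, was higher in both clones, at 7.70 in clone 4 and 8.23 in clone 10, against 7.23 in mock. It was the only member at least 2-fold apart in 1 clone alone, by 1.00 in clone 10 and 0.47 in clone 4 (limma adjusted p = 0.366). Timp1 read 10.10 and 10.29 in clones 4 and 10, against 10.25 in mock, and Timp4 read 5.61 on every array.

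Reck showed the widest gap between the clones, at 6.37 in clone 4 and 7.32 in clone 10, against 6.89 in mock. Clone 4 was below mock and clone 10 above it, so their mean, 6.84 ± 0.67 (SD, n = 2), lay close to mock (limma adjusted p = 1). The gap of 0.95 between clone 10 and clone 4 fell just short of 2-fold. No member was 2-fold apart between the clones, beside 0.441% of all genes, and at 1.5-fold the count was 2, Reck and Adamts6. With 1 array per clone these gaps have no test.

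**Figure D4:**
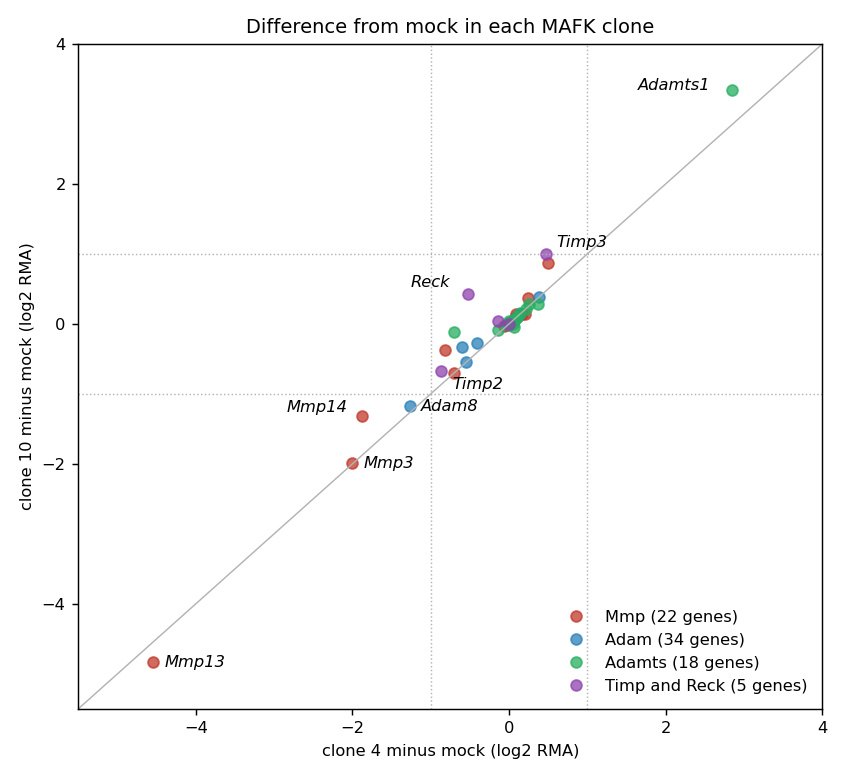
Each point is a member, with its difference from mock in clone 4 (x axis) and in clone 10 (y axis), both in log2 RMA units and both sharing the 1 mock array. The solid line marks equal differences and dotted lines mark 2-fold. Mmp13, Mmp3, Mmp14 and Adam8 lie beyond 2-fold at the lower left, Adamts1 at the upper right, and Reck lies on opposite sides of 0 in the clones.

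Genes known to regulate the enzymes or to be cut by them were followed in 7 lists. Together these held 129 measured genes, of which 13 met the 2-fold rule, 11 lower and 2 higher. These are 10.1% of the listed genes against 3% of all genes, 8.53% against 1.81% for lower and 1.55% against 1.19% for higher. The lists were drawn up with earlier results of these data known, so nothing particular to them is read from these shares. Of the 129, 1 rose and 5 fell, 0.775% and 3.88%, beside 0.401% and 0.762% of all genes, and none of these 6 passed after a second quantile normalization.

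Of 14 regulators of ADAM10 and ADAM17, 2 fell and none rose. Tspan15 encodes a tetraspanin partner that carries ADAM10 to the cell surface and promotes its cutting of cadherins. It read 7.60 in clone 4 and 7.50 in clone 10, against 9.79 in mock, 4.69-fold lower (limma adjusted p = 0.0337). Pcsk6, a proprotein convertase gene, read 7.06 and 7.14 in clones 4 and 10, against 8.71 in mock, 3.04-fold lower (limma adjusted p = 0.0409). Over this list the clone 4 median was -0.20 and the clone 10 median 0.00, against 0 over all genes.

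Of 29 shed ligands and receptors 4 were 2-fold lower and none higher. Cdh1, the gene of E-cadherin, a substrate of ADAM10 and of stromelysin-1, read 6.85 in clone 4 and 6.64 in clone 10, against 11.35 in mock, and fell (limma adjusted p = 0.0282). Alcam, an adhesion molecule gene, read 7.31 and 6.65 in clones 4 and 10, against 9.86 in mock, without passing (limma adjusted p = 0.103). Vcam1 was 13.8-fold lower and Ereg, which encodes the growth factor epiregulin, 3.32-fold lower, and neither passed (limma adjusted p = 0.0542 and 0.0700).

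Of 19 other zinc metallopeptidases 1 was 2-fold apart. Mme, the gene of neprilysin, a membrane enzyme that degrades small peptides, fell 7.63-fold and read 5.68 in clone 4 and 5.95 in clone 10, against 8.75 in mock (limma adjusted p = 0.0410). Of 20 ADAMTS-like and other modulator genes 1 was 2-fold apart. Lrp1, an endocytic receptor that clears several metalloproteinases and TIMP complexes, read 8.50 in clone 4 and 9.75 in clone 10, against 10.97 in mock. Its clones differed by more than 2-fold from each other, and it did not pass (limma adjusted p = 0.329). None of 6 genes of the plasminogen system, which activates Mmp precursors, was 2-fold apart in both clones.

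Matrix substrates were apart in both directions, with 2 of 26 higher and 3 lower. Fn1, the fibronectin gene, rose 4.28-fold (limma adjusted p = 0.0311), and Lamb3, a chain of laminin-332, fell 3.14-fold (limma adjusted p = 0.0346). The laminin gene Lamb1 was 4.62-fold higher, the proteoglycan gene Dcn 3.91-fold lower and the tenascin gene Tnc 2.71-fold lower, none passing (limma adjusted p from 0.0542 to 0.0985). Over this list the clone 4 median was 0.01 and the clone 10 median 0.02.

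**Figure D5:**
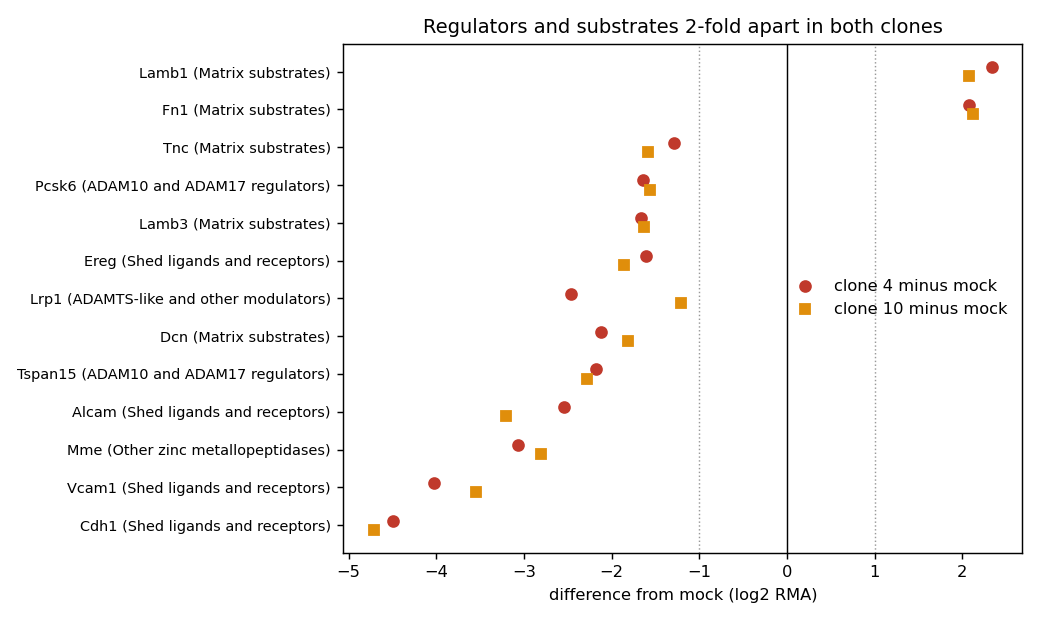
Rows are the 13 regulators, related peptidases and substrates that met the 2-fold rule, with their list in brackets. Symbols give the difference from mock (x axis, log2 RMA units) in clone 4 (circles) and clone 10 (squares), and dotted lines mark 2-fold. Fn1 and Lamb1 lie to the right and the other 11 to the left.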

How the data were processed

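Per the submitters' processing notes the authors ran RMA (no version given) on 3 Affymetrix arrays and deposited 1 log2 value per probe set and array. RMA corrects background, quantile normalizes the arrays and summarises probes by median polish. Values ran from 4.40 to 14.3 with medians of 6.92 in clone 4, 6.93 in clone 10 and 6.89 in mock. Filters and a genome build are not given in the sources used here.

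Of 28815 probe sets, 21780 had 1 gene symbol in the platform annotation, 1605 had several and 5430 had none. Through Entrez identifiers, 21689 symbols were brought up to date from a GRCm38.p6 gene table. The probe set with the highest mean stood for each of 19935 genes.

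limma 3.58.1 in R 4.3.3 (lmFit with moderated variances, two-sided, Benjamini-Hochberg over all genes) compared MAFK with mock on 1 residual degree of freedom, assuming that mock varies as the clones do. Since 11062 genes had equal values in both clones, the prior (1.93 degrees of freedom, SD 0.0694) was taken from the 8873 genes whose clones differed. Genes equal in the clones had the smallest standard error, 0.0690, which came from the prior alone. The fit was tested on simulated data. Fold values are 2 to the power of a log2 difference. The standard errors are limma's own. Alternatives were a second quantile normalization, a filter on low genes, the mean of all probe sets, symbols as annotated, other priors, a fold of 1.5 and leaving out each clone.

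Named by rule were members at least 2-fold apart from mock in either clone or between the clones, the inhibitors, Mmp2, Mmp3, Mmp7, Mmp9, Mmp10, Mmp13, Mmp14, Adam10, Adam17, Adamts1, Adamts5, and listed genes 2-fold apart in both clones. Other genes, such as Adam9, Adam15, the markers and the AP-1 and ETS factors, are named outside this rule. Members and lists were chosen with earlier results of these data known. Promoter sequences are RefSeq's.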

Additional observations from a re-analysis of the deposited data

How the results depend on the processing

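Members meeting the 2-fold rule in both clones numbered 5, and 5 again after a second quantile normalization, with low genes left out, with the mean of all probe sets and with symbols as annotated. At 1.5-fold there were 7, adding Mmp10 and Timp2, and with 1 clone left out between 5 and 6. Members passing limma numbered 2 (Mmp13 and Mmp3). They numbered 0 after a second quantile normalization, where no gene of the table passed (at an unadjusted limma p under 0.05 there, 5 members and 562 of all genes met the 2-fold rule), and 4 with an intensity trend in the prior, which added Adam8 and Adamts1. The related genes that passed numbered 6, and 0 after the second quantile normalization (12 at an unadjusted p under 0.05). The prior there had 1.51 degrees of freedom, against 1.93 in the main fit. The sizes stayed at -4.69 for Mmp13 and -2.00 for Mmp3, whose standard error was 0.058, against 0.069. The cause of the lost calls was not tested. Members 2-fold apart between clone 10 and clone 4 numbered 0, and 2 at 1.5-fold. Of 98 other values for the 17 named members, leaving aside those with 1 clone left out, none changed sign, 2 lost the call made by 2-fold and limma together, 3 gained it and 93 had the same call. Among those 93, the adjusted p alone fell under 0.05 with a prior from all genes for Adam10 (0.0253), Mmp10 (0.0242), Mmp7 (0.0409) and Mmp9 (0.0455), none of them 2-fold apart. With clone 4 left out the sign turned for Reck (0.43, against -0.05 with both clones) and Timp1 (0.05, against -0.05). Over the alternatives run, the limma adjusted p ranged from 0.0166 to 0.0671 for Mmp13 and from 0.0165 to 0.0657 for Mmp3. It ranged from 0.0299 to 0.0942 for Adam8, from 0.0496 to 0.120 for Adamts1 and from 0.136 to 0.224 for Mmp14. With either clone left out no residual degree of freedom remained, so those are values with no test. No paired analysis was possible because mock is 1 array and the labels do not link it to either clone.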
